A study of Caenorhabditis elegans with 32 samples.

Results

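A set of genes of one-carbon and S-adenosylmethionine (SAM) metabolism was followed in ageing Caenorhabditis elegans, chosen by name for their enzyme function. They are the 10 genes sams-1, sams-3, sams-4, sams-5, metr-1, mtrr-1, ahcy-1, pmt-1, pmt-2 and mel-32, out of 39963 named genes. They carry 16 of the 46971 RefSeq transcripts listed in the 3 tables that share one set of identifiers. The gene names of the isoform table identified 14 transcripts of 9 of these genes. The methionine synthase gene metr-1 and a further pmt-1 transcript, NM_062589, were added through their RefSeq identifiers.

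The series measured poly-A selected mRNA of whole, pooled adults in 20 libraries of 10 groups, 2 libraries a group, at day 12 or day 2 of adulthood. It also holds 12 chromatin samples, which were not analysed here. Its question is how trimethylation of histone H3 at lysine 36, and the methyltransferase gene met-1, relate to expression in ageing. Every animal carried glp-1(e2141), a temperature-sensitive allele whose carriers form little germline in the warmth. Little germline is thus presumed from the genotype, and levels of germline marker genes are given below. The groups, each at day 12 and at day 2, comprised an experiment in which the label names either met-1 RNA interference or L4440, an empty feeding vector commonly used in worms, on the glp-1(e2141) background. They further comprised worms with both met-1(n4337) and glp-1(e2141), set against a glp-1(e2141) control, and untreated glp-1(e2141) animals. Values of single libraries exist for the RNA interference experiment, 8 libraries in all. The untreated, control and mutant experiments have 1 pooled value per age, deposited by the authors, with no spread between libraries.

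SAM, the methyl donor of most cellular methylation, is made from methionine and ATP by SAM synthetases. Each methyl transfer leaves S-adenosylhomocysteine, which is split to homocysteine, and methionine synthase returns homocysteine to methionine with a methyl group from the folate cycle and vitamin B12 as cofactor. In C. elegans a large use of SAM is the stepwise methylation of phosphoethanolamine to phosphocholine, the head group of phosphatidylcholine. Reduced sams-1 is known in the worm for low phosphatidylcholine, for fat storage through the lipid regulator SBP-1 and for long life.

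Levels are FPKM, a count of fragments scaled to transcript length and to library size, and can be compared between genes within a library. Differences are day 12 minus day 2, or met-1-labelled minus L4440, of log2(FPKM + 1), with every library centred to one median of the tested transcripts. They were tested in a limma fit across 18572 transcripts with at least 1 FPKM in at least 2 libraries, and called at a Benjamini-Hochberg adjusted p below 0.05. The centring matters, because as deposited the median tested transcript was higher at day 12 by 0.48 in met-1-labelled animals and by 0.46 in L4440 animals. Without centring, 4417 transcripts were called higher and 1418 lower at day 12 in met-1-labelled animals, against 1550 and 2291 with it, and in L4440 animals 4193 and 1352, against 1260 and 2210. Quantile normalization gave 2086 higher and 2241 lower in met-1-labelled animals, and 1743 and 1961 in L4440 animals. Equal summed FPKM gave 1848 higher and 1956 lower, and 1553 and 1764. The labels do not say whether replicates were separate cultures, so p-values measure only the spread between these libraries, which may be technical.

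Relative to each other, read numbers at day 12 stood at 1.30 and 1.00 in met-1-labelled libraries and 1.05 and 0.356 in L4440 libraries, the second of which was the shallowest, and at day 2 they lay between 1.19 and 1.24. The targeted gene went against its label. Summed met-1 FPKM at day 12 was 80.1 and 57.1 in met-1-labelled libraries, against 10.7 and 29.8 in L4440 libraries, and at day 2 it was 13.03 and 27.49, against 7.80 and 5.03. The libraries are therefore called met-1-labelled throughout, and no direction below is read as that of a knockdown. Whether the treatment reduced met-1 was not tested beyond these summed levels. In the other experiment the authors' pooled met-1 sum was 4.79 FPKM at day 12 and 6.67 FPKM at day 2 in animals labelled met-1 mutant, against 6.34 and 5.41 FPKM in their control, so the level of met-1 does not check that label. Where the allele lies in the transcript was not given in the sources used here. Summed levels of 13 hypodermal marker genes lay between 918 and 1209 FPKM at day 12 and between 16930 and 19260 FPKM at day 2 in met-1-labelled libraries, and between 1205 and 1227 FPKM against 18430 and 18890 FPKM in L4440 libraries. Of 15 tested hypodermal transcripts, 5 fell and 2 rose in met-1-labelled animals, 5 fell and 0 rose in L4440 animals, and the median differences were −0.76 and −0.999. Summed levels of 10 body wall muscle genes lay between 1589 and 1655 FPKM at day 12 and between 3042 and 3356 FPKM at day 2 in met-1-labelled libraries, and between 1370 and 1820 FPKM against 2735 and 3265 FPKM in L4440 libraries, and 6 of 14 tested transcripts fell and 0 rose in each arm, with medians of −1.03 and −1.25. The sums of 12 intestinal marker genes overlapped between the ages. They were 5594 to 11820 FPKM at day 12 and 8953 to 9089 FPKM at day 2 in met-1-labelled libraries, and 9823 to 11630 FPKM against 8047 to 12010 FPKM in L4440 libraries. Of 14 tested intestinal transcripts, 2 fell and 1 rose in met-1-labelled animals, and 3 fell and 1 rose in L4440 animals. The median difference was −0.16 in each arm. The 25 germline genes summed to between 114.4 and 284 FPKM at day 12 and 38.1 and 44.5 FPKM at day 2 in met-1-labelled libraries, and to between 95.9 and 292 FPKM against 41.1 and 284 FPKM in L4440 libraries, with 1 to 6 of them at 0 in both libraries of a group. Of 13 tested germline transcripts, 3 rose and 0 fell in each arm, with medians of 0.37 in met-1-labelled and 0.15 in L4440 animals. The part of these cell types in the results below was not tested, and in whole animals fewer cells of a type and less RNA per cell cannot be told apart.

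Most of the pathway was lower at day 12. This fall was made up by sams-1, metr-1, ahcy-1, pmt-2 and mel-32, each with 1 transcript that fell in both arms, and 2 of the 4 pmt-1 transcripts fell in both arms as well. Of the 16 transcripts, 14 passed the level filter, from 9 of the 10 genes. In met-1-labelled animals 7 were called lower and 1 higher at day 12, beside 12.3% of all tested transcripts called lower and 8.35% called higher. In L4440 animals 7 were called lower and 1 higher, beside 11.9% lower and 6.78% higher of all tested. The median difference of the 14 transcripts was −1.27 in met-1-labelled and −1.18 in L4440 animals, against −0.01 and −0.07 over all tested transcripts. With 1 library left out the number of the 14 that were called lay between 4 and 7 in met-1-labelled and between 5 and 10 in L4440 animals. It was 4 and 5 without the first and second met-1-labelled libraries of day 2, and 5 in L4440 animals without any one of the L4440 libraries or of the met-1-labelled libraries of day 2.

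**Figure D1:**
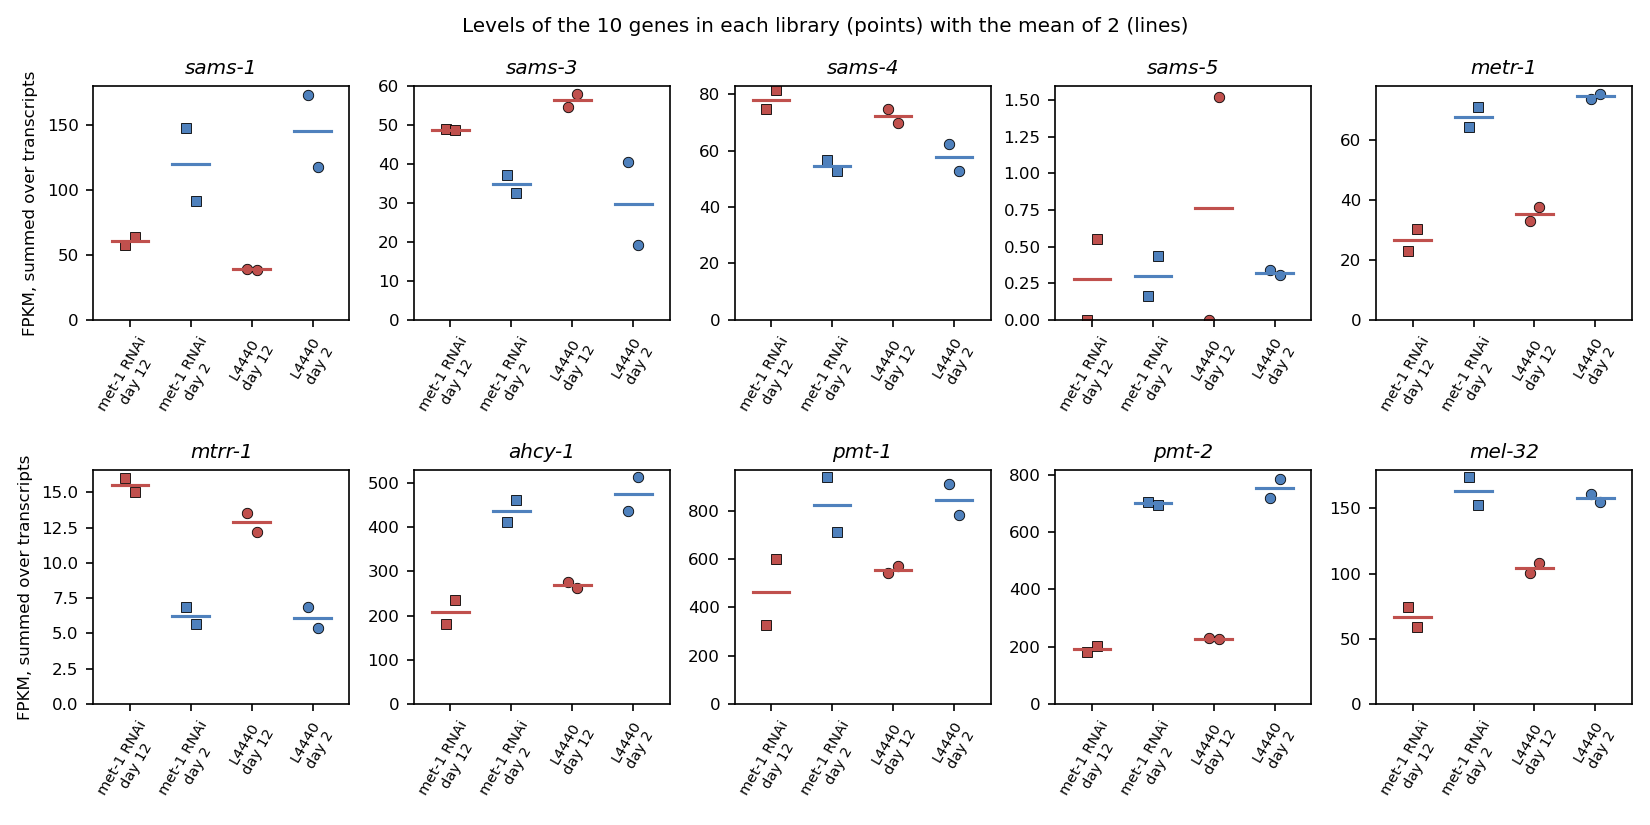
FPKM of each gene (transcripts summed) in the 8 libraries of the RNA interference experiment, with day 12 left of day 2 in each arm. The day 12 points of sams-1, metr-1, ahcy-1, pmt-1, pmt-2 and mel-32 lie below all day 2 points. Those of sams-3, sams-4 and mtrr-1 lie above them. The values are as deposited, where the median tested transcript was itself higher at day 12. The share of all transcripts separated in this way was not counted.

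Among the SAM synthetases, sams-1 was the most abundant at day 2 and the one that fell. It lies on chromosome X, 11965950 to 11967316 in the coordinates of the tables, with a genome build not given in the sources used here. Its transcript NM_077601 had 58.1 and 64.1 FPKM at day 12 and 148 and 91.9 FPKM at day 2 in met-1-labelled libraries. In L4440 libraries it had 39.2 and 38.5 FPKM at day 12 and 174 and 118 FPKM at day 2. All 4 day 12 libraries were below all 4 day 2 libraries, and the day 2 replicates lay further apart than the day 12 replicates. The difference was −1.41 ± 0.27 in met-1-labelled animals (SE, n = 2 against 2; limma adjusted p = 0.0171) and −2.38 ± 0.27 in L4440 animals (limma adjusted p = 0.00341). In met-1-labelled animals the call was lost without either library of day 12 (−1.32 and −1.50; limma adjusted p = 0.0837 and 0.0641) and without the first library of day 2 (−1.08; limma adjusted p = 0.0694). It was lost there as well on the values as deposited (−0.92; limma adjusted p = 0.0533) and with only these 2 groups in the fit (limma adjusted p = 0.0531). In L4440 animals it held under all 17 alternatives, with limma adjusted p between 0.0028 and 0.0243.

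The paralogs sams-3 and sams-4 are closely similar SAM synthetase genes that lie next to each other on chromosome IV, at 5848672 to 5850582 and 5844312 to 5846320, so the division of reads between them, and between their isoforms, is uncertain. Isoform a of sams-3, NM_068471, was higher at day 12 in every library. It had 17.5 and 23.2 FPKM at day 12 and 8.10 and 7.64 FPKM at day 2 in met-1-labelled libraries, and 22.8 and 18.2 FPKM against 7.49 and 5.51 FPKM in L4440 libraries. The ages did not overlap. Its difference was 0.76 ± 0.23 in met-1-labelled animals, which did not pass the test (limma adjusted p = 0.0697), and 1.00 ± 0.23 in L4440 animals, where it rose (limma adjusted p = 0.0337). The call in L4440 animals was lost without any one of the L4440 libraries (0.84 to 1.16; limma adjusted p = 0.0634 to 0.136) or of the met-1-labelled libraries of day 2 (limma adjusted p = 0.0693 and 0.0694). It was also lost with only these 2 groups in the fit (limma adjusted p = 0.106).

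Isoform b of sams-3, NM_068472, did not follow isoform a. It had 31.1 and 25.5 FPKM at day 12 and 28.1 and 23.6 FPKM at day 2 in met-1-labelled libraries, and 31.0 and 39.8 FPKM against 32.4 and 13.2 FPKM in L4440 libraries. Both arms overlapped between ages, and neither difference passed the test (−0.37 ± 0.39 with limma adjusted p = 0.572, and 0.20 ± 0.39 with limma adjusted p = 0.762). Summed over its 3 transcripts, sams-3 had 48.9 and 48.6 FPKM at day 12 and 37.1 and 32.6 FPKM at day 2 in met-1-labelled libraries, and 54.6 and 58.1 FPKM against 40.4 and 19.2 FPKM in L4440 libraries. Relative to the median transcript the sum differed by −0.03 ± 0.31 in met-1-labelled animals (limma adjusted p = 0.951) and by 0.42 ± 0.31 in L4440 animals (limma adjusted p = 0.371). The third sams-3 transcript, isoform d, was between 0 and 1.32 FPKM and did not pass the level filter.

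For sams-4 the 2 isoforms summed to 74.7 and 81.4 FPKM at day 12 and 56.5 and 52.9 FPKM at day 2 in met-1-labelled libraries, and to 74.6 and 69.9 FPKM against 62.4 and 52.9 FPKM in L4440 libraries. These FPKM were higher at day 12 in both arms, but not relative to the median transcript. The centred difference of the sum was −0.005 in met-1-labelled animals, with a 95% interval of −0.30 to 0.29, and −0.24 in L4440 animals, with a 95% interval of −0.53 to 0.06. Neither isoform passed the test in either arm, with differences between −0.40 and 0.14. The direction of isoform a in both arms, and of isoform b in L4440 animals, changed with the scaling. As deposited, isoform a was 0.33 in met-1-labelled and 0.12 in L4440 animals, against −0.16 and −0.40 with centring. The remaining synthetase, sams-5, on chromosome IV at 6277464 to 6279126, was near the detection limit. Its highest value was 1.52 FPKM, in the second L4440 library of day 12, and it did not pass the level filter.

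Because these genes encode the same enzyme activity, their shares of the summed SAM synthetase FPKM were taken within each library, where the scaling between libraries does not enter. In met-1-labelled libraries sams-1 held 31.97% and 32.93% of the sum at day 12, against 61.2% and 51.7% at day 2. In L4440 libraries it held 23.3% and 22.9% at day 12, against 62.7% and 61.9% at day 2. At day 12 sams-4 held the largest share in all 4 libraries, 41.1% to 44.3%, whereas at day 2 sams-1 did in all 4 of the RNA interference libraries. The sum itself was 182 and 195 FPKM at day 12 and 242 and 178 FPKM at day 2 in met-1-labelled libraries, and 168.4 and 168.0 FPKM against 277 and 190.0 FPKM in L4440 libraries. The sums overlapped between ages in the met-1-labelled arm and not in the L4440 arm, where day 12 was the lower. The shares of sams-3 and sams-4 depend on the uncertain division of reads between them, and the share of sams-1 depends on their sum. The column labels of the RNA interference values name unique hits. If reads that match both genes were left out, their sum is too low and the share of sams-1 too high. How such reads were handled was not given in the sources used here.

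**Figure D2:**
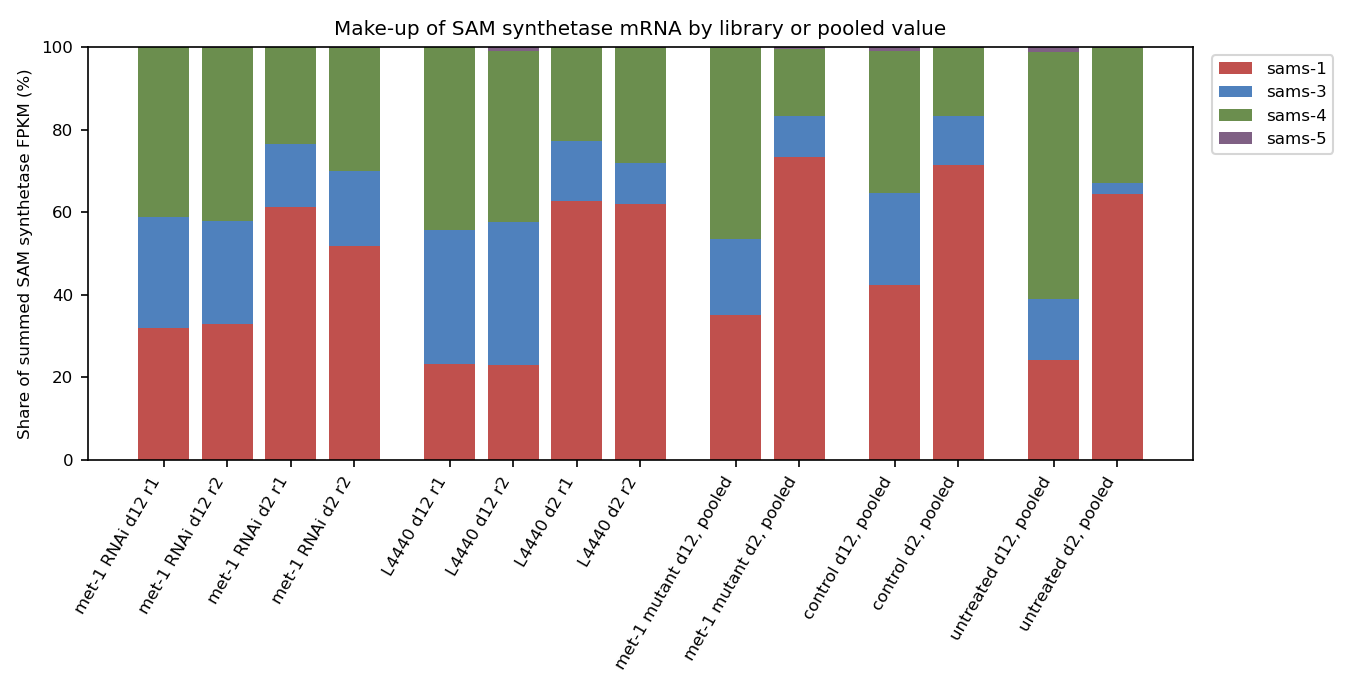
Share of each SAM synthetase gene in the summed SAM synthetase FPKM (percent, stacked bars) in the 8 libraries and in the authors' pooled values of the other experiments, with day 12 left of day 2. The sams-1 share is 22.9% to 42.4% in the day 12 bars and 51.7% to 73.3% in the day 2 bars.

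The enzymes that return homocysteine to methionine did not move together. Methionine synthase, metr-1, on chromosome II at 10926485 to 10930805, had 22.8 and 30.2 FPKM at day 12 and 64.1 and 70.9 FPKM at day 2 in met-1-labelled libraries. In L4440 libraries it had 33.0 and 37.7 FPKM at day 12 and 73.7 and 75.3 FPKM at day 2. The ages were apart in both arms, and metr-1 fell, with log2 differences of −1.82 ± 0.18 in met-1-labelled animals (limma adjusted p = 0.00211) and −1.59 ± 0.18 in L4440 animals (limma adjusted p = 0.00352).

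The reductase that reactivates methionine synthase, mtrr-1, was on the other side of the median. It lies on chromosome II at 9285899 to 9288936 and had 16.1 and 15.0 FPKM at day 12 and 6.83 and 5.64 FPKM at day 2 in met-1-labelled libraries, and 13.6 and 12.2 FPKM against 6.83 and 5.40 FPKM in L4440 libraries. Its replicates lay close together and the ages did not overlap. It rose by 0.71 ± 0.18 in met-1-labelled animals (limma adjusted p = 0.0436), a call that was lost without any one of the 8 libraries (0.60 to 0.82; limma adjusted p = 0.0545 to 0.195), with equal summed FPKM (limma adjusted p = 0.0893) and with only these 2 groups in the fit (limma adjusted p = 0.0842). The difference of 0.44 ± 0.18 in L4440 animals did not pass the test (limma adjusted p = 0.159), though it did on the values as deposited (0.97; limma adjusted p = 0.0165).

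The S-adenosylhomocysteine hydrolase ahcy-1, which removes the product that inhibits methyltransferases, was among the most abundant of the 10 genes. It lies on chromosome I at 6836483 to 6837933. Its level was 180.0 and 236 FPKM at day 12 and 413 and 462 FPKM at day 2 in met-1-labelled libraries, and 276 and 263 FPKM against 436 and 513 FPKM in L4440 libraries. The ages did not overlap in either arm. It fell, with log2 differences of −1.57 ± 0.19 in met-1-labelled animals (limma adjusted p = 0.00405) and −1.34 ± 0.19 in L4440 animals (limma adjusted p = 0.00728).

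The serine hydroxymethyltransferase mel-32 passes a carbon of serine to folate and so feeds the methyl supply of methionine synthase. It lies on chromosome III at 6440203 to 6442757, and its level was 74.6 and 58.7 FPKM at day 12 and 174 and 152 FPKM at day 2 in met-1-labelled libraries. In L4440 libraries it was 101 and 108 FPKM at day 12 and 161 and 155 FPKM at day 2. The day 2 levels of the arms overlapped, and the day 12 levels did not. It fell, with log2 differences of −1.77 ± 0.14 in met-1-labelled animals (limma adjusted p = 0.00112) and −1.12 ± 0.14 in L4440 animals (limma adjusted p = 0.00463).

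The methyltransferases of phosphocholine synthesis were the most abundant genes of the set in the day 2 libraries of the RNA interference experiment. PMT-1 adds the first methyl group to phosphoethanolamine and PMT-2 adds the remaining ones. The level of pmt-2, on chromosome V at 4628753 to 4635177, was 182 and 201 FPKM at day 12 and 705 and 695 FPKM at day 2 in met-1-labelled libraries, and 229 and 225 FPKM against 720 and 787 FPKM in L4440 libraries. Replicates lay closer together than the ages by a wide margin. It fell, with log2 differences of −2.36 ± 0.13 in met-1-labelled animals (limma adjusted p = 0.000503) and −2.25 ± 0.13 in L4440 animals (limma adjusted p = 0.000564), the smallest adjusted p of the 14 transcripts in each arm. The calls of pmt-2, ahcy-1, metr-1 and mel-32 held under all 17 alternatives in both arms, and the highest limma adjusted p among these was 0.0469, for ahcy-1 in L4440 animals with 1 library left out.

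For pmt-1, on chromosome II at 5278401 to 5282482, 4 overlapping transcripts share reads and their division is uncertain, so the sum comes first. Summed pmt-1 was 327 and 601 FPKM at day 12 and 939 and 712 FPKM at day 2 in met-1-labelled libraries, and 542 and 571 FPKM against 913 and 781 FPKM in L4440 libraries. The ages did not overlap, but the met-1-labelled replicates of day 12 were far apart. The summed gene fell, with log2 differences of −1.39 ± 0.31 in met-1-labelled animals (limma adjusted p = 0.0230) and −1.16 ± 0.31 in L4440 animals (limma adjusted p = 0.0436), in a fit over genes with their transcripts summed.

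Of the single pmt-1 transcripts, NM_182198 differed by −1.54 ± 0.29 in met-1-labelled animals (limma adjusted p = 0.0171) and by −1.28 ± 0.29 in L4440 animals (limma adjusted p = 0.0332). The corresponding values of NM_062589 were −1.29 ± 0.32 (limma adjusted p = 0.0387) and −1.23 ± 0.32 (limma adjusted p = 0.0480). These calls were close to the threshold. In L4440 animals both transcripts lost the call without any one of the L4440 libraries or of the met-1-labelled libraries of day 2 (−1.06 to −1.50; limma adjusted p = 0.0506 to 0.178), on the values as deposited (−0.75 and −0.71; limma adjusted p = 0.0996 and 0.146) and with quantile normalization (−0.87 and −0.84; limma adjusted p = 0.0873 and 0.126). NM_062589 lost it there also with equal summed FPKM (limma adjusted p = 0.0514) and a pseudocount of 5 (limma adjusted p = 0.0619). In met-1-labelled animals NM_062589 lost it without any single library other than the second day 12 library of the met-1-labelled arm (−0.94 to −1.62; limma adjusted p = 0.0534 to 0.165), and NM_182198 lost it without either met-1-labelled library of day 2 (limma adjusted p = 0.0889 and 0.0828). There NM_062589 lost it as well on the values as deposited (−0.80; limma adjusted p = 0.106), with quantile normalization (−0.92; limma adjusted p = 0.0916) and with only these 2 groups in the fit (limma adjusted p = 0.111), and NM_182198 with only these 2 groups (limma adjusted p = 0.0588). Transcript NM_182197 was called in neither arm (−1.25 with limma adjusted p = 0.0882, and −0.83 with limma adjusted p = 0.226). It was called in met-1-labelled animals without the second day 12 library of the met-1-labelled arm (−1.88; limma adjusted p = 0.0119), and in L4440 animals without either met-1-labelled library of day 12 (limma adjusted p = 0.0450 and 0.0448). The fourth, NM_062590, was listed at 0 in 5 of 8 libraries and reached 4.16 FPKM at most. It was called in neither arm, but was called in met-1-labelled animals without the first day 12 library of the met-1-labelled arm (limma adjusted p = 0.0194) and in L4440 animals without either met-1-labelled library of day 12 (limma adjusted p = 0.00448 and 0.00445).

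**Figure D3:**
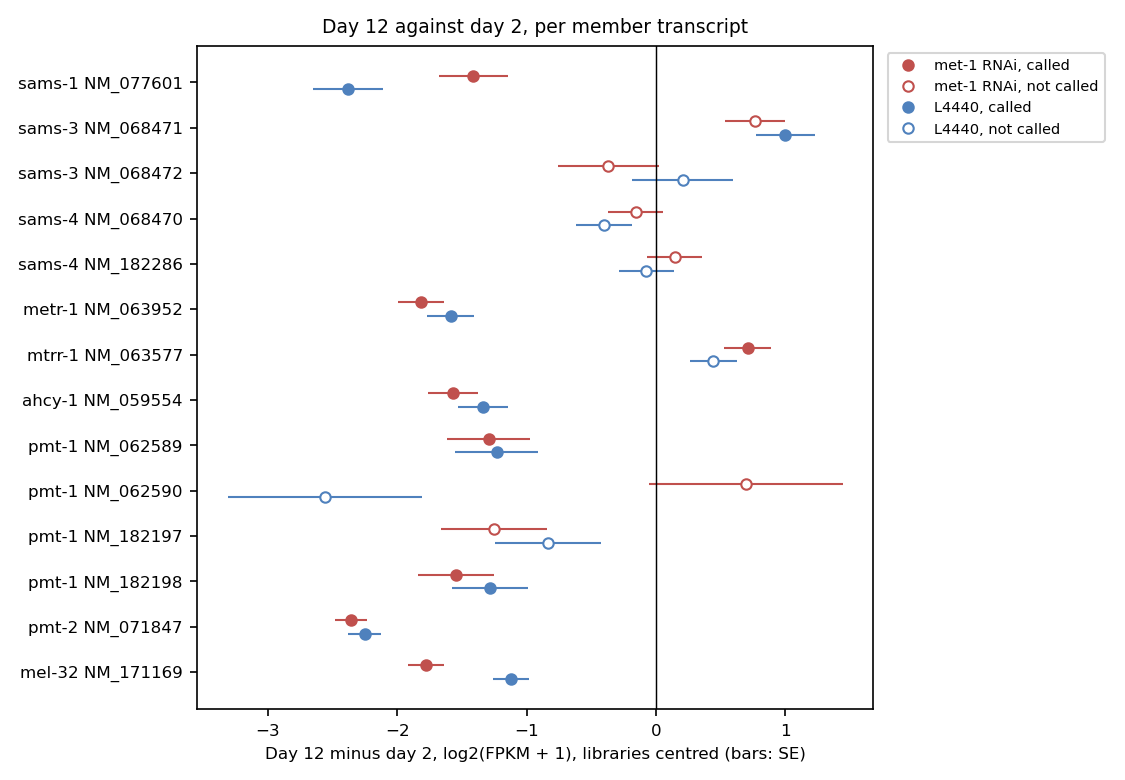
Difference between day 12 and day 2 of each tested transcript (log2(FPKM + 1), libraries centred) in met-1-labelled and L4440 animals, with bars for the SE and filled points for calls. Of the 14 transcripts, 7 are called lower in each arm, and the called higher ones are mtrr-1 in met-1-labelled and sams-3 isoform a in L4440 animals.

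The other experiments give the same question without replicates. Their values are the authors' pooled FPKM, and the log2 ratio of day 12 over day 2, with 1 FPKM added to each, was centred on its median over transcripts at 1 FPKM or more at either age. Levels are not compared between experiments, because the scaling of each table was not given in the sources used here. Past 2-fold, 6 transcripts were lower and 1 higher of 14 in the mutant, beside 17.7% lower and 17.1% higher of all. In its control, 4 were lower and 2 higher of 14, beside 15.6% and 14.1%. In untreated animals, 4 were lower and 1 higher of 11, beside 11.7% and 8.71%.

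The gene of the set with the largest ratio in all of these experiments was pmt-2. It had 99.99 FPKM at day 12 and 1120 FPKM at day 2 in the mutant, 167 and 1093 FPKM in its control, and 98.3 and 614 FPKM in untreated animals, for centred log2 ratios of −3.46, −2.70 and −2.56. For sams-1 the values were 43.7 and 234 FPKM in the mutant, 58.0 and 211 FPKM in the control, and 18.3 and 101 FPKM in untreated animals, with ratios of −2.39, −1.85 and −2.32. Both genes thus had their lower value at day 12 in every experiment.

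The same held for ahcy-1 and mel-32. The level of ahcy-1 was 168 FPKM at day 12 and 875 FPKM at day 2 in the mutant, 187 and 529 FPKM in the control, and 154 and 395 FPKM in untreated animals, with centred log2 ratios of −2.37, −1.49 and −1.28. The level of mel-32 was 68.3 and 278 FPKM in the mutant, 112 and 264 FPKM in the control, and 100.1 and 223 FPKM in untreated animals, with ratios of −2.001, −1.23 and −1.07. For pmt-2, sams-1, ahcy-1 and mel-32 the ratio was larger in size in the mutant than in its control, a difference with no replicate check. More of all transcripts also passed 2-fold in the mutant, 17.7% lower and 17.1% higher, against 15.6% and 14.1% in the control.

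Isoform a of sams-3 went the other way in all of them, with 11.1 FPKM at day 12 and 4.88 FPKM at day 2 in the mutant, 13.1 and 4.82 FPKM in the control, and 10.4 and 2.56 FPKM in untreated animals. The centred log2 ratios were 1.05, 1.28 and 1.76. Isoform b had 11.7 and 26.7 FPKM in the mutant and 16.4 and 29.7 FPKM in the control, with ratios of −1.12 and −0.83, so the 2 isoforms of this gene moved in opposite directions there. In untreated animals isoform b had 0.454 and 0.972 FPKM. The division between isoforms is uncertain here too. Summed sams-3 was lower at day 12 in the mutant (22.8 and 31.9 FPKM) and in the control (30.3 and 34.7 FPKM). In untreated animals it was higher at day 12 (11.3 and 3.93 FPKM). The share of sams-1 in the summed synthetase FPKM was 35.1% at day 12 and 73.3% at day 2 in the mutant, 42.4% and 71.5% in its control, and 24.2% and 64.4% in untreated animals. At day 12 sams-4 held more than sams-1 in the mutant (46.2%) and in untreated animals (59.7%), but in the control sams-1 still held more than sams-4 (34.6%).

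The direction of metr-1 differed between experiments. It had 29.3 FPKM at day 12 and 41.5 FPKM at day 2 in the mutant, a centred log2 ratio of −0.48, but 87.7 FPKM at day 12 and 42.1 FPKM at day 2 in the control, a ratio of 1.04. It was thus lower at day 12 in the mutant and in both arms of the RNA interference experiment and higher in the control, whose 2 libraries cannot be looked at singly. The untreated table has no value for it that was used here. Neither mtrr-1, at −0.32, 0.18 and 0.16 in the mutant, control and untreated animals, nor the first isoform of sams-4, at 0.14, −0.05 and 0.24, came near 2-fold. Of the pmt-1 transcripts, 1 of 11 values over these experiments passed 2-fold, NM_182197 in the mutant at −1.07. The low transcript NM_062590 also lay on opposite sides of the median, with 9.07 FPKM at day 12 and 4.26 FPKM at day 2 in the mutant (0.95) and 4.3999 and 8.63 FPKM in the control (−0.84).

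For untreated animals the authors' deposited table also gives q-values, below 0.05 for 32.3% of its transcripts, in either direction. In the authors' deposited table the q-value was 9.44e-21 for both pmt-2 (log2 −2.64) and sams-1 (log2 −2.46), the smallest the table holds. It was 9.26e-13 for ahcy-1 (log2 −1.36) and 7.45e-05 for mel-32 (log2 −1.16) in the authors' deposited table. Isoform a of sams-3 had a q-value of 2.23e-09 (log2 2.03) in the authors' deposited table, and the remaining transcripts of the set that it lists were not below 0.05.

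**Figure D4:**
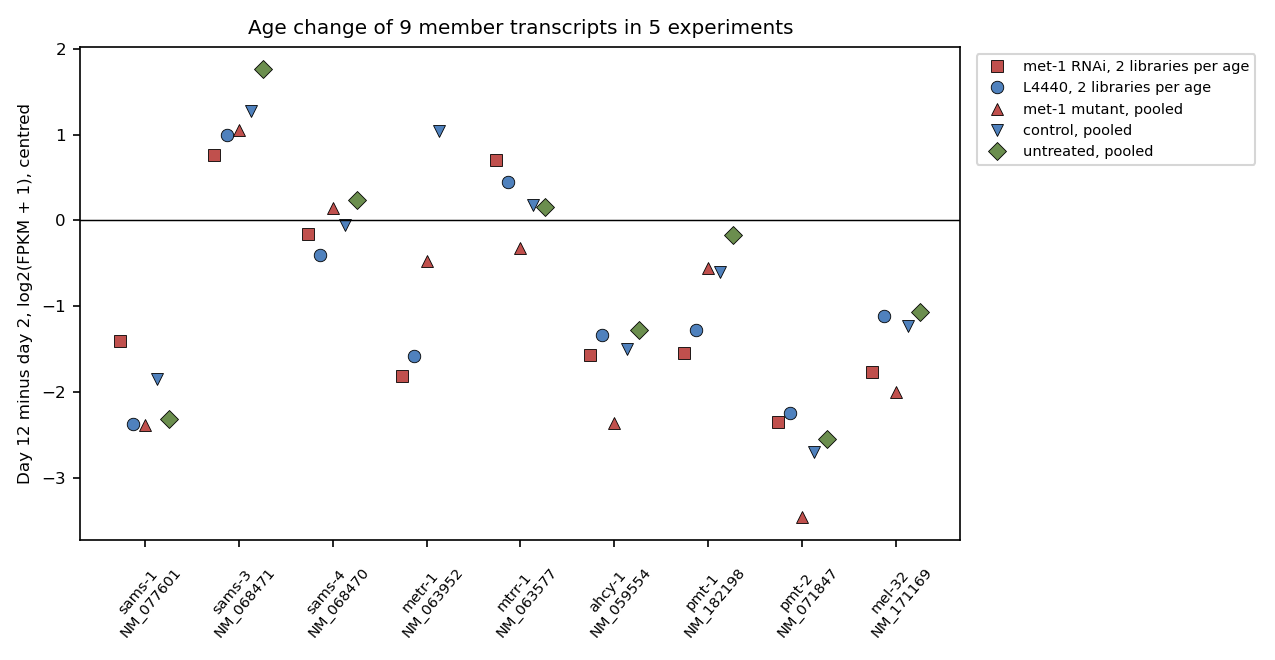
Difference between day 12 and day 2 (log2(FPKM + 1), centred on the median) of single transcripts in the mutant, its control, untreated animals and both arms of the RNA interference experiment. Values of pmt-2, sams-1, ahcy-1 and mel-32 lie below 0 throughout, whereas metr-1 is at 1.04 in the control and below 0 in the other experiments that list it.

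Between the arms at one age no transcript of the set was called. At day 12, 0 of 14 were called, beside 0.501% of all tested transcripts, and 1 had an unadjusted p below 0.05, as had 1919 of all 18572. The lone one was mel-32, whose 74.6 and 58.7 FPKM in met-1-labelled libraries were below the 101 and 108 FPKM in L4440 libraries, a difference of −0.66 with a 95% interval of −0.999 to −0.311 (limma adjusted p = 0.212). For sams-1, with 58.1 and 64.1 FPKM in met-1-labelled and 39.2 and 38.5 FPKM in L4440 libraries, the difference was 0.63 with a 95% interval of −0.03 to 1.29 (limma adjusted p = 0.504). At day 12 the levels of metr-1, ahcy-1, pmt-2 and mtrr-1 did not overlap between the arms either. The share of all transcripts without overlap was not counted, so nothing is read from this. The intervals of metr-1 (−0.86 to 0.03), ahcy-1 (−0.86 to 0.08), pmt-2 (−0.57 to 0.06) and mtrr-1 (−0.20 to 0.70) each held 0, and they leave room for a difference of up to 0.57 to 0.86 on the log2 scale.

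At day 2, 0 of 14 were called, beside 0.151% of all, and the limma adjusted p was 0.9996 for each. All transcripts other than pmt-1 NM_062590 lay between −0.34 and 0.25, and NM_062590 was listed at 0 in both met-1-labelled libraries, with 3.11 and 3.06 FPKM in L4440 libraries, and was the 1 transcript with an unadjusted p below 0.05, as had 644 of all. The difference of the age changes was called for 0 of 14, beside 0.372% of all, with 3 at an unadjusted p below 0.05, as had 1057 of all. These were pmt-1 NM_062590, sams-1 at 0.97 (95% interval 0.03 to 1.90; limma adjusted p = 0.865) and mel-32 at −0.65 (95% interval −1.14 to −0.17; limma adjusted p = 0.660). The smaller size of the sams-1 difference, and the larger size of the mel-32 difference, in met-1-labelled animals therefore did not pass the test.

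**Figure D5:**
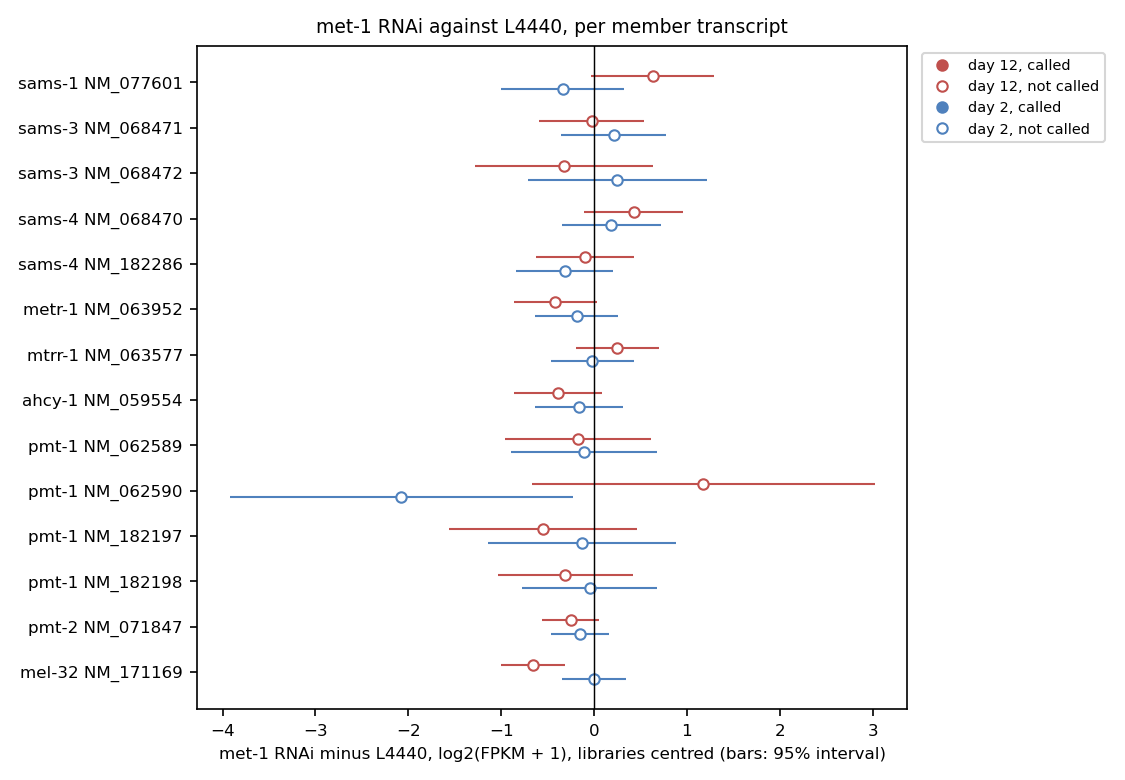
Difference between met-1-labelled and L4440 animals of each tested transcript (log2(FPKM + 1), libraries centred) at day 12 and at day 2, with bars for 95% intervals. No point is filled as called, and at day 12 the interval of mel-32 runs from −0.999 to −0.311.

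Genes around the cycle were counted in the same fit, from lists of textbook function, with limma calls as above. Background shares are those given above, and the median over all tested transcripts was −0.01 in met-1-labelled and −0.07 in L4440 animals. Of 15 tested transcripts of 14 folate cycle genes, 7 fell in met-1-labelled and 8 in L4440 animals and 0 rose, and the median difference was −0.90 in each arm. The folate transporter gene folt-2 had 2.21 and 1.32 FPKM at day 12 and 226 and 152 FPKM at day 2 in met-1-labelled libraries, and 1.40 and 1.09 FPKM against 269 and 219 FPKM in L4440 libraries. Its transcript fell, with log2 differences of −6.58 ± 0.25 in met-1-labelled animals (limma adjusted p = 0.000301) and −7.29 ± 0.25 in L4440 animals (limma adjusted p = 0.000276). The aminomethyltransferase gene gcst-1 of the glycine cleavage system fell, with log2 differences of −1.99 ± 0.13 and −1.74 ± 0.13, and F38B6.4 with −2.19 ± 0.23 and −1.83 ± 0.23, in met-1-labelled and in L4440 animals.

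Of 17 tested transcripts of 14 transsulfuration and glutathione genes, which take homocysteine out of the cycle, 8 fell and 1 rose in met-1-labelled animals, and 5 fell and 0 rose in L4440 animals, with medians of −0.89 and −0.74. The one that rose, named after its value was seen, was a transcript of cbs-1, cystathionine beta-synthase, which commits homocysteine to this route. It had 87.1 and 119.7 FPKM at day 12 and 39.95 and 27.5 FPKM at day 2 in met-1-labelled libraries, a difference of 1.11 ± 0.26 (limma adjusted p = 0.0328). The difference of the age changes was called for 0 transcripts of this list, so the rise is not read as particular to an arm. The cystathionine lyase gene cth-2 had 293 and 422 FPKM at day 12 and 1080.0 and 979 FPKM at day 2 in met-1-labelled libraries, and 380 and 353 FPKM against 1017 and 1074 FPKM in L4440 libraries. The gene fell, with log2 differences of −2.04 ± 0.21 in each arm (limma adjusted p = 0.00230 and 0.00259). The glutamate-cysteine ligase gene gcs-1, the first step of glutathione synthesis, fell, with log2 differences of −1.66 ± 0.11 in met-1-labelled and −1.35 ± 0.11 in L4440 animals, and the cysteine synthase-like gene cysl-3 with −1.53 ± 0.36 and −1.74 ± 0.36.

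Of 15 tested transcripts of 10 genes tied to vitamin B12, the cofactor of methionine synthase, 10 fell in met-1-labelled and 8 in L4440 animals and 0 rose, with medians of −1.19 and −1.13. The acyl-CoA dehydrogenase gene acdh-1 acts in the B12-independent breakdown of propionate rather than on B12, and is known in the worm to be expressed when B12 is scarce. Its transcript NM_059470 had 1.07 and 1.08 FPKM at day 12 and 1620 and 1221 FPKM at day 2 in met-1-labelled libraries, and 1.46 and 3.46 FPKM against 2148 and 1748 FPKM in L4440 libraries. It fell, with log2 differences of −9.90 ± 0.30 in met-1-labelled animals (limma adjusted p = 0.000237) and −9.72 ± 0.30 in L4440 animals (limma adjusted p = 0.000276). The transporter gene pmp-5 fell, with log2 differences of −2.39 ± 0.26 and −2.02 ± 0.26 in met-1-labelled and L4440 animals.

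Of 22 tested transcripts of 17 phosphatidylcholine genes beyond pmt-1 and pmt-2, 8 fell in each arm and 0 rose, with medians of −0.54 in met-1-labelled and −0.64 in L4440 animals. The ethanolamine-phosphate cytidylyl transferase gene pcyt-2.1, which serves phosphatidylethanolamine, fell, with log2 differences of −1.64 ± 0.33 in met-1-labelled and −2.37 ± 0.33 in L4440 animals. The choline dehydrogenase gene chdh-1, which uses up choline, fell, with log2 differences of −1.92 ± 0.19 and −1.64 ± 0.19, and the lipin gene lpin-1 with −1.41 ± 0.20 and −1.52 ± 0.20. Of 16 tested transcripts of sbp-1 and genes tied to it, lipid targets among them, 7 fell in met-1-labelled and 6 in L4440 animals and 0 rose. The medians were −1.54 and −0.93. The fatty acid elongase gene elo-6 had 187 and 120.0 FPKM at day 12 and 2972 and 2366 FPKM at day 2 in met-1-labelled libraries, and 228 and 180.0 FPKM against 3053 and 2952 FPKM in L4440 libraries. It fell, with log2 differences of −4.63 ± 0.25 and −4.41 ± 0.25, and its neighbour elo-5 with −3.54 ± 0.18 and −3.40 ± 0.18, in met-1-labelled and in L4440 animals. The stearoyl-CoA desaturase gene fat-6 fell, with log2 differences of −6.09 ± 1.19 in L4440 animals (limma adjusted p = 0.0203), and in met-1-labelled animals its difference of −4.13 ± 1.19 did not pass the test (limma adjusted p = 0.0628).

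Of 32 tested transcripts of 28 other SAM-using methyltransferase genes, 5 fell and 1 rose in each arm, and their median difference was 0.01 in met-1-labelled and −0.12 in L4440 animals, so their counts and medians were near those of all tested transcripts. The gene that rose in L4440 animals was mes-4, a histone H3 lysine 36 methyltransferase gene, with 29.7 and 11.4 FPKM at day 12 and 0.619 and 0.524 FPKM at day 2, a difference of 3.11 ± 0.46 (limma adjusted p = 0.00789). In met-1-labelled libraries mes-4 had 2.18 and 2.00 FPKM at day 12 and 0.586 and 0.162 FPKM at day 2, a difference of 0.70 ± 0.46 that did not pass the test (limma adjusted p = 0.354). The gene that rose in met-1-labelled animals, named after its value was seen, was metl-5, with 20.3 and 22.8 FPKM at day 12 and 9.0005 and 7.78 FPKM at day 2, a difference of 0.78 ± 0.17 (limma adjusted p = 0.0279). For this list too the difference of the age changes was called for 0 transcripts, so neither rise is read as particular to an arm. Among those that fell in both arms were the catechol-type methyltransferase gene comt-2, with −2.51 ± 0.38 in met-1-labelled and −3.37 ± 0.38 in L4440 animals, and the amine methyltransferase gene anmt-2, with −1.27 ± 0.21 and −1.67 ± 0.21. Of 6 tested transcripts of the polyamine and adenosine branch, 4 fell in met-1-labelled and 3 in L4440 animals and 0 rose, with medians of −0.84 and −0.86. SAM decarboxylase, smd-1, the entry to polyamine synthesis, fell, with log2 differences of −2.06 ± 0.14 and −1.83 ± 0.14, the purine salvage gene hprt-1 with −1.81 ± 0.15 and −2.16 ± 0.15, and adenosine kinase, adk-1, which clears the adenosine that ahcy-1 releases, with −0.75 ± 0.13 and −0.82 ± 0.13, in met-1-labelled and in L4440 animals.

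Across the 8 libraries, which share the age contrast, the transcripts most like sams-1 by Pearson correlation of log2(FPKM + 1) were F14D7.6 (0.996), gpi-1, glucose-6-phosphate isomerase (0.994), E02H9.7 (0.994), R11F4.1 (0.993) and C09B8.4 (0.989). Within the set the same measure was 0.924 for pmt-2, 0.921 for pmt-1 NM_062589 and 0.884 for metr-1. It was −0.863 for sams-3 isoform a and −0.750 for mtrr-1. These are descriptions over 8 libraries of 4 groups and carry no test.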

How the data were processed

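The members and the gene lists were chosen with earlier results of these data known, so no count of theirs is independent evidence. The FPKM values were deposited by the authors, per the file headers for 3 tables; the RNA interference table names no unit and was taken as FPKM because the submitters' processing notes list Cuffdiff. The log2 ratio and the q-value of the isoform table were deposited by the authors, and the test behind them was not given in the sources used here. Cuffdiff, TopHat2, TopHat, BWA and CASAVA 1.8 are named without roles per the submitters' processing notes. Build, annotation, strandedness and scaling were not given in the sources used here. Reads of overlapping genes cannot be separated where strand is ignored.

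Transcripts with at least 1 FPKM in at least 2 of 8 libraries and status OK were tested on log2(FPKM + 1), a scale that understates the change of low transcripts, with limma 3.58.1 in R 4.3.3 (lmFit and eBayes with trend, two-sided, 4 groups in 1 fit). Benjamini-Hochberg adjustment ran over all 18572. Pooled tables carry no test. Relative depth comes from the spacing of low values, with the second day 12 library of the met-1-labelled arm set to 1. No 2 libraries held identical values. Genes named from a list are its called transcripts of largest change in L4440 animals, up to 3 a list, and genes like sams-1 are the 5 of highest correlation. Alternatives were other scalings, pseudocounts and filters, a replicate block, fewer groups in the fit, and each library left out. Figures were drawn with matplotlib 3.10.9.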

Additional observations from a re-analysis of the deposited data

How the results depend on the processing

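The calls of pmt-2, ahcy-1, metr-1 and mel-32 between ages held in both arms under all 17 alternatives, and that of sams-1 in L4440 animals. Over all transcripts, the 3841 calls in met-1-labelled animals became 5835 as deposited, 6437 with no filter and 1785 to 3560 with 1 library left out. The 3470 calls in L4440 animals became 5545, 6605 and 2035 to 3186, and 1999 with only these groups in the fit. Of the 14 transcripts, 8 calls became 4 with only these groups and 4 to 7 with 1 library left out in met-1-labelled animals, and 5 to 10 with 1 left out in L4440 animals.

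Between arms, the 93 calls at day 12 became 16 with a filter at 5 FPKM, 6 with only these groups and 68 to 221 with 1 library left out. The 28 at day 2 became 8, 1 and 4 to 37. The 69 of the difference became 9 with that filter, 14 with a pseudocount of 0.1 and 13 to 116 with 1 left out. With replicate number as a block, calls were 51, 2 and 7 at day 12, at day 2 and for the difference. The block also ended the calls of pmt-1 NM_062589 in met-1-labelled (adjusted p = 0.0636) and L4440 animals (adjusted p = 0.0764) and of sams-3 isoform a in L4440 animals (adjusted p = 0.0577), each from limma. The numbers did not pair the libraries (correlations of −0.06 to 0.13 over 6 pairs of groups). With a pseudocount of 5, pooled transcripts past 2-fold fell to 3867, against 6740, in the mutant, 2946, against 5260, in the control and 1452, against 2495, in untreated animals.

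Reversed directions were confined, among the age results, to uncalled transcripts. In met-1-labelled animals they were, as deposited, sams-3 isoform b (0.12) and sams-4 isoform a (0.33), and with 1 library left out sams-4 isoform b (−0.011 to 0.30) and pmt-1 NM_062590 (−0.51 to 1.90). In L4440 animals they were, as deposited, sams-4 isoforms a (0.12) and b (0.45). Isoform b of sams-4 also reversed with quantile normalization (0.052), equal summed FPKM (0.049), a pseudocount of 5 (0.027) and 1 library left out (−0.34 to 0.19), as did sams-3 isoform b with 1 left out (−0.38 to 0.79). The cause was not tested. The low transcripts of sams-5 and sams-3 isoform d did not pass the level filter. With no filter on low values they entered the fit, and 9 transcripts of the set were called in met-1-labelled animals, against 8. The added call fell on a transcript of this low pair. In L4440 animals the count stayed at 8.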
